A study of Rattus norvegicus with 6 samples.

Results

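The genes described here are 10 members of the TGF-beta pathway, namely the ligand genes Tgfb1, Tgfb2 and Tgfb3, the receptor genes Tgfbr1, Tgfbr2 and Tgfbr3, the signal transducer gene Smad3, the feedback inhibitor genes Smad7 and Skil, and the latency protein gene Ltbp1. They were taken by symbol from a count table of 37209 genes, of which 21252 had any read, and all 10 were found in it and passed the filter on low counts that left 13390 genes for testing. The cells were primary mesenchymal stem cells from the femoral bone marrow of wild-type rats (BMSCs), marrow stromal cells able to become osteoblasts, chondrocytes or adipocytes. In the CSE group (3 libraries) they received 3% cigarette smoke extract, the soluble fraction of cigarette smoke, for 6 h, and in the Control group (3 libraries) they were kept in serum-free medium for 6 h. The sources used here do not give the age, sex or number of the animals, or the medium in which the extract was diluted. Nor do the labels say whether the libraries came from separate cultures, and the p-values reflect library-to-library spread that may be no more than technical.

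TGF-beta is secreted as a latent complex in which the ligand is held by its own propeptide and by a latent TGF-beta binding protein that ties it to the matrix. Once freed, it joins a type II and a type I receptor kinase, which phosphorylate SMAD2 and SMAD3, and these enter the nucleus with SMAD4. SMAD7 and the corepressors SKI and SKIL (SnoN) oppose the signal and are themselves switched on by it or removed during it. In bone marrow stroma and bone, the pathway recruits and expands osteoprogenitors, induces matrix genes and restrains late osteoblast maturation. Gene roles given here are known mainly from human and mouse cells.

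The libraries held 15958621 to 22589327 counts, and the first principal component, with 88.6% of the variance, separated the groups. All 12 mesenchymal markers were tested, of which 3 rose and 6 fell, with a summed level of 31873 to 33204 CPM with CSE and 32881 to 36004 CPM in Control. Among them Col1a1, which makes up most of that sum, lay at 25310 to 26460 CPM with CSE and 26620 to 30130 CPM in Control, and Thy1 lay at 1373 to 1477 CPM with CSE and 1138 to 1236 CPM in Control. Like Thy1, Cd44 was higher, at 845.5 to 909 CPM with CSE and 399 to 425 CPM in Control. So was Itgb1, at 3252 to 3298 CPM with CSE and 2642 to 2873 CPM in Control. Cxcl12 was lower, at 77.4 to 88.4 CPM with CSE and 364 to 388 CPM in Control. Pdgfra, Pdgfrb and Prrx1 were likewise lower in every CSE library than in any Control library. Lepr, at 1.04 to 1.34 CPM with CSE and 0.706 to 1.30 CPM in Control, was barely detected. Of 13 macrophage markers 12 were tested, of which 2 rose and 4 fell, and their summed level was 409 to 434 CPM with CSE and 476 to 487 CPM in Control. Macrophage Ptprc lay at 48.4, 50.02 and 49.4 CPM with CSE and 60.5 to 64.5 CPM in Control. Cd14 was lower too, at 15.45 to 17.7 CPM with CSE and 41.1 to 49 CPM in Control. The same held for Csf1r, at 111.9 to 123.9 CPM with CSE and 138.7 to 139.2 CPM in Control. Mrc1 also lay lower, at 22.7 to 26.6 CPM with CSE and 29.4 to 30.5 CPM in Control. Tyrobp lay higher, at 46.4 to 53.7 CPM with CSE and 39.3 to 41.6 CPM in Control. So did Cd68, at 48.5 to 54.6 CPM with CSE and 46.3 to 47.8 CPM in Control. The macrophage markers thus disagreed, with more falling than rising, and Cd163 was listed at 0 throughout. The sum of the osteoclast markers was 158 to 169 CPM with CSE and 162 to 171 CPM in Control, and of 2 tested 1 rose. Acp5 lay at 28.1 to 33.7 CPM with CSE and 21.5 to 23.5 CPM in Control. Ctsk went the other way, at 129.7 to 137.9 CPM with CSE and 139.5 to 147.3 CPM in Control. Megakaryocyte and platelet markers summed to 8.31 to 10.8 CPM with CSE and 6.27 to 7.77 CPM in Control, with Ppbp, Gp1bb and Gp9 listed at 0. Endothelial markers summed to 7.11 to 9.04 CPM with CSE and 11.0 to 12.0 CPM in Control, with Emcn and Cldn5 listed at 0. Summed lymphocyte, neutrophil and erythroid markers stayed at or below 0.711 CPM in every library. In these bulk libraries, fewer cells of a type and less RNA per cell cannot be told apart, and the part of RNA from such other cells in the values below was not tested.

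Levels are given as normalized counts per 1000000 counts (CPM, scaled by TMM). They are not divided by transcript length and are therefore compared between groups, and do not rank genes by abundance. The same holds for the read shares and read ratios below, whose size inside a group depends on transcript length. Changes are log2 fold changes of CSE over Control with their standard error (SE), tested over all 13390 genes with edgeR's quasi-likelihood test and Benjamini-Hochberg adjustment at a threshold of 0.05. Of the 10 members, 3 passed as higher, 4 passed as lower and 3 missed the threshold. Over all tested genes 73.9% passed, 36.3% as higher and 37.5% as lower, so the number of members that passed is close to the background and says nothing particular about them. The median log2 fold change was −0.11 over the members and −0.02 over all tested genes.

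The promoters of 4 members are shown because they hold the deepest falls and the only exact copies of the cAMP response element TGACGTCA in the stretches searched. Near matches and sites outside these stretches were not searched. Tgfb2 and Tgfb3 had the deepest falls, whereas Skil rose and Ltbp1 missed the threshold. Each sequence runs 5′ to 3′ on the gene's strand from 250 bases before to 50 bases after the annotated start, from RefSeq on rat build GRCr8, and capitals mark every match of a searched motif on either strand. Tgfb2 lies at chr13:100792636-100792935 (minus strand), Tgfb3 at chr6:111456897-111457196 (minus strand), Skil at chr2:114203523-114203822 (minus strand) and Ltbp1 at chr6:26177252-26177551 (minus strand).
Tgfb2: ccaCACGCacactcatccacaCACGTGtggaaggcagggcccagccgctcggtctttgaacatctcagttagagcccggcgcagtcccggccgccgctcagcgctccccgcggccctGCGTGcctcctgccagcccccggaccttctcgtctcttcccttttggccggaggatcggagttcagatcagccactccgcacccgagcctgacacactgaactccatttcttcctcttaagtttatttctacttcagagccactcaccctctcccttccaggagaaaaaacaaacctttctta
Tgfb3: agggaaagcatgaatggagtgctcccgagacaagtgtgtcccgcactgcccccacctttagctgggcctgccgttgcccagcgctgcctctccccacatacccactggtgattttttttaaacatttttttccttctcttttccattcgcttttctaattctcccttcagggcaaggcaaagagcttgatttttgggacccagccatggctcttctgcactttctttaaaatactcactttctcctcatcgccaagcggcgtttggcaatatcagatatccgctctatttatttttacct
Skil: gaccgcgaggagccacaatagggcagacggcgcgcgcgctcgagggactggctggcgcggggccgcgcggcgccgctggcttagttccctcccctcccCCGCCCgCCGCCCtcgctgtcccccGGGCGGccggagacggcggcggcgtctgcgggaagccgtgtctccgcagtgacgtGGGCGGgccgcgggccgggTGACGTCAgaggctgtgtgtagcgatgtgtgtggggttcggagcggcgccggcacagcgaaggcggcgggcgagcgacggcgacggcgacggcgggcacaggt
Ltbp1: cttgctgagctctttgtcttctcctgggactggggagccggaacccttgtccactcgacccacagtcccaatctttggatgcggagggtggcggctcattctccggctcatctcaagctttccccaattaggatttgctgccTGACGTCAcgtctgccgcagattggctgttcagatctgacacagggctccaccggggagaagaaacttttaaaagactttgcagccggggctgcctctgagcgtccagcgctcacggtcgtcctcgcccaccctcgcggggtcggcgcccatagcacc

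The motifs searched were the SMAD palindrome GTCTAGAC, the SMAD repeat CAGACAGA and its core CAGACA, the cAMP response element TGACGTCA, the AP-1 site TGANTCA, the antioxidant response core TGACNNNGC, the heat shock element, the aryl hydrocarbon receptor core GCGTG, the E-box CACGTG, the SP1 box GGGCGG and the TATA box TATAAA. Promoters of all 10 members were in the table, beside 33469 promoters in all. The cAMP response element began 53 bases before the start of Skil and 108 bases before that of Ltbp1, and was held by 1.83% of all promoters. Skil also held 4 SP1 boxes, a motif found in 6 of the 10 member promoters and in 33.1% of all. The Tgfb2 promoter held 2 aryl hydrocarbon receptor cores, which 6 of the 10 members and 29.7% of all promoters contained, and 1 E-box, which 6.42% of all contained. In the Tgfb3 window none of the searched motifs was found. No member window held a SMAD palindrome (0.197% of all promoters), a SMAD repeat (2.48%) or its core (21.1%), an AP-1 site (7.33%), a heat shock element (0.798% for each of its 2 forms) or a TATA box (14.2%), and Tgfbr2 alone held an antioxidant response core (12.1%). The repeat core lies within the full repeat, and AP-1 sites and antioxidant cores can share bases. The aryl hydrocarbon receptor core and the SP1 box are rich in G and C. The GC content of the member windows ran from 47.7% (Tgfb3) to 77.7% (Smad7), beside a median of 51.7% over all promoters. These matches describe letters in the windows and say nothing of binding, and the counts of members with a motif have no test.

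Among the ligand genes, Tgfb3 and Tgfb2 fell steeply with CSE while Tgfb1 missed the threshold. Tgfb3 had 206, 199.7 and 181 CPM in the CSE libraries, against 1134, 1092 and 1141 CPM in the Control libraries. The groups lay far apart, with every CSE library well below every Control library. Means were 196 ± 12.8 CPM with CSE and 1122 ± 26.4 CPM in Control (SD, n = 3 each), a log2 fold change of −2.52 ± 0.05 (adjusted p = 6.3e-17 in edgeR), which is 82.6% lower with CSE. Tgfb2 had 144, 155 and 140.2 CPM in the CSE libraries, against 577, 577 and 542 CPM in the Control libraries. Here too the groups did not overlap, and the mean was 146 ± 7.57 CPM with CSE and 565 ± 20.1 CPM in Control (SD, n = 3 each), a log2 fold change of −1.95 ± 0.05 (adjusted p = 1.1e-15 in edgeR). These are the only members that fell at least 2-fold, as did 14.4% of all tested genes.

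Tgfb1, the isoform most abundant in bone matrix, had 129, 118 and 117 CPM with CSE, against 123, 109 and 122 CPM in Control. The groups overlapped, and the log2 fold change of 0.04 ± 0.06 missed the threshold (adjusted p = 0.577 in edgeR). Its sign was not stable: it turned to −0.10 with upper-quartile scaling (adjusted p = 0.140 in edgeR) and to −0.15 with total counts alone (adjusted p = 0.0262 in edgeR). It also turned without CSE replicate 1 (−0.01) and without Control replicate 2 (−0.03).

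**Figure D1:**
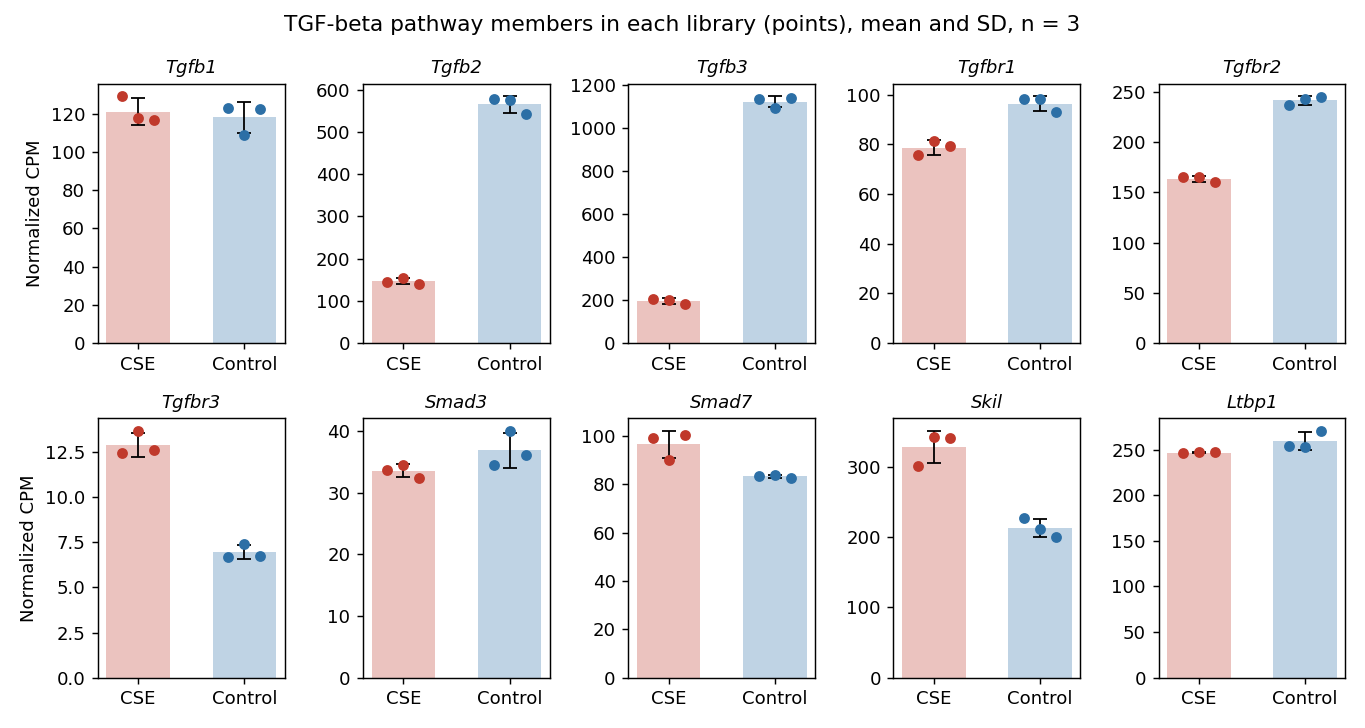
Normalized counts per 1000000 counts (vertical axes, each from 0) of the 10 members in the CSE libraries (left, red) and the Control libraries (right, blue); points are libraries, bars are means and whiskers are SD (n = 3). Tgfb2 and Tgfb3 stand at 146 and 196 CPM with CSE and at 565 and 1122 CPM in Control, whereas the points of Tgfb1 and Smad3 overlap between groups.

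The unequal change of the ligand genes altered their proportions inside each library, a measure that does not depend on how libraries are scaled. Of the reads of the 3 ligand genes together (8478 to 35778 per library), Tgfb1 supplied 27.0%, 24.9% and 26.6% with CSE, against 6.72%, 6.12% and 6.78% in Control. Tgfb3 supplied 43.0%, 42.3% and 41.4% with CSE, against 61.8%, 61.4% and 63.2% in Control. Tgfb1's share was thus higher and Tgfb3's lower in every CSE library than in any Control library, by 19.6 and −19.9 percentage points in the means. The 3 shares are parts of a whole and so are not separate results. Tgfb1's higher share goes with the falls of the other ligand genes and is no rise of Tgfb1 itself. The share of Tgfb2 was 30.0%, 32.8% and 32.0% with CSE and 31.5%, 32.4% and 30.0% in Control, with overlapping groups and means of 31.6 ± 1.42% and 31.3 ± 1.21% (SD, n = 3 each). The 95% Wilson intervals, which cover counting error only, reach at most 1.05 percentage points to either side of a share. Exact 2-sided permutation tests gave p = 0.1 for Tgfb1 and Tgfb3, the smallest p that 3 libraries against 3 allow, and p = 0.8 for Tgfb2, or 0.113, 0.113 and 0.8 adjusted over 9 within-library ratios. None of these passes the threshold, which this design cannot reach.

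**Figure D2:**
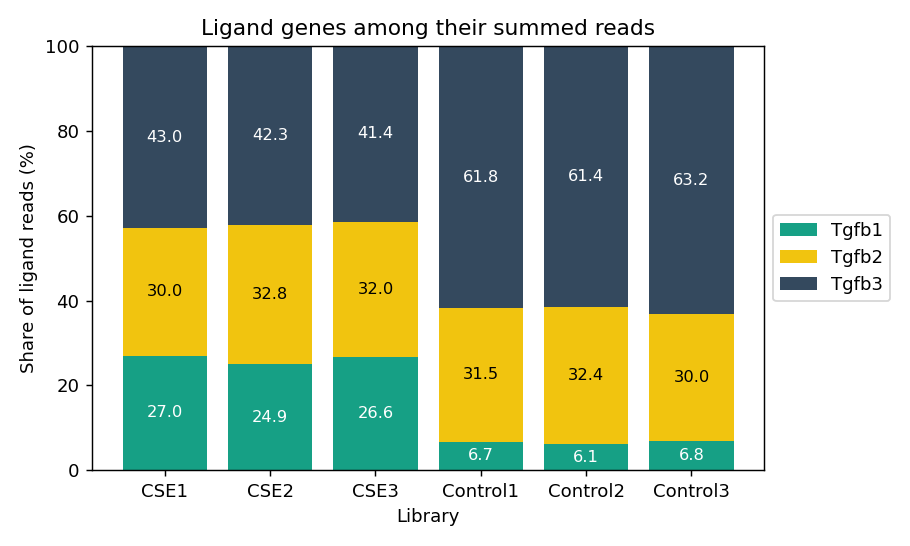
Share of each ligand gene (vertical axis, percent) in the summed reads of Tgfb1, Tgfb2 and Tgfb3 for each of the 6 libraries (horizontal axis, CSE libraries first). The Tgfb1 segment takes 24.9% to 27.0% in the CSE libraries and 6.12% to 6.78% in the Control libraries, while the Tgfb2 segment is similar in height in all 6.

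Both signalling receptor genes were lower with CSE and the coreceptor gene was higher. Tgfbr2, which encodes the type II kinase that binds the ligand first, had 165, 166 and 160.4 CPM with CSE, against 237, 243 and 245 CPM in Control. The groups did not overlap, and the log2 fold change was −0.56 ± 0.04 (adjusted p = 3.9e-09 in edgeR). Tgfbr1, the type I kinase (ALK5) that phosphorylates SMAD2 and SMAD3, had 75.6, 81.4 and 79.2 CPM with CSE, against 98.2, 98.3 and 92.9 CPM in Control. It fell by less, with no overlap and a log2 fold change of −0.29 ± 0.05 (adjusted p = 7.9e-05 in edgeR). Tgfbr3 encodes betaglycan, a coreceptor that presents TGF-beta, above all the TGFB2 isoform, to the type II receptor, and its shed form captures ligand. It had 12.4, 13.7 and 12.6 CPM with CSE, against 6.71, 7.43 and 6.76 CPM in Control. Every CSE library lay above every Control library, with a log2 fold change of 0.89 ± 0.11 (adjusted p = 1.3e-06 in edgeR), the largest rise among the members.

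Inside each library the log2 ratio of Tgfbr3 to Tgfbr2 reads was −3.73, −3.60 and −3.67 with CSE, against −5.14, −5.03 and −5.18 in Control. That is 1.45 higher with CSE in the means, without overlap. The ratio of Tgfbr1 to Tgfbr2 was −1.06 ± 0.06 with CSE and −1.33 ± 0.07 in Control (SD, n = 3 each), a difference of 0.27 with no overlap. Both differences had an exact permutation p = 0.1 (0.113 adjusted over the 9 ratios).

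Of the intracellular members, the inhibitor genes Skil and Smad7 rose and Smad3 missed the threshold. Skil, whose product binds SMAD complexes and recruits corepressors, had 301, 341 and 341 CPM with CSE, against 226, 212 and 200.5 CPM in Control. The groups did not overlap, and the log2 fold change was 0.62 ± 0.06 (adjusted p = 2.6e-08 in edgeR). Smad7, which occupies the type I receptor and brings ubiquitin ligases to it, had 99.1, 90.1 and 100.4 CPM with CSE, against 83.3, 84.0 and 82.7 CPM in Control. All CSE libraries were higher, with a small log2 fold change of 0.21 ± 0.05 (adjusted p = 0.0019 in edgeR). This call ended with upper-quartile scaling (0.08, adjusted p = 0.209 in edgeR) and with total counts alone (0.02, adjusted p = 0.694 in edgeR). Over the 13 alternatives run for Smad7, adjusted p lay between 5.9e-04 and 0.694.

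Smad3, the activating SMAD that binds DNA directly, had 33.6, 34.6 and 32.5 CPM with CSE, against 34.6, 40.1 and 36.1 CPM in Control. The lowest Control library met the highest CSE library, and the log2 fold change of −0.14 ± 0.07 missed the threshold (adjusted p = 0.0810 in edgeR). It passed as lower without Control replicate 1 (−0.19, adjusted p = 0.0328 in edgeR), with upper-quartile scaling (adjusted p = 0.0019 in edgeR) and with total counts alone (adjusted p = 4.8e-04 in edgeR). The highest adjusted p of any alternative was 0.324. Ltbp1, the binding protein that anchors the latent ligand to the matrix, had 246, 247 and 247 CPM with CSE, against 254, 253 and 271 CPM in Control. The groups lay side by side without overlap, and the log2 fold change of −0.07 ± 0.05 missed the threshold (adjusted p = 0.156 in edgeR). It passed as lower with upper-quartile scaling (−0.21, adjusted p = 5.6e-04 in edgeR) and total counts alone (−0.26, adjusted p = 4.5e-05 in edgeR). The highest adjusted p of any alternative was 0.388.

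The scaling of the libraries moved all members together. Relative to TMM, the median of all tested genes shifted by −0.14 with upper-quartile scaling and by −0.19 with total counts alone, and the share of higher genes among those that passed was 49.2% with TMM and 37.2% with total counts alone. With total counts alone 2 members were higher and 7 lower, beside 3749 higher and 6319 lower of all 13390 tested genes. Measured from that shifted median, Tgfb1 stood at 0.06, Smad7 at 0.23, Ltbp1 at −0.06 and Smad3 at −0.12. Because a scaling shifts all genes almost equally, these values are nearly the same under TMM by construction and are no check of the calls. Tgfb2, Tgfb3, Tgfbr1 and Tgfbr2 passed as lower, and Tgfbr3 and Skil as higher, under each of the 13 alternatives run.

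**Figure D3:**
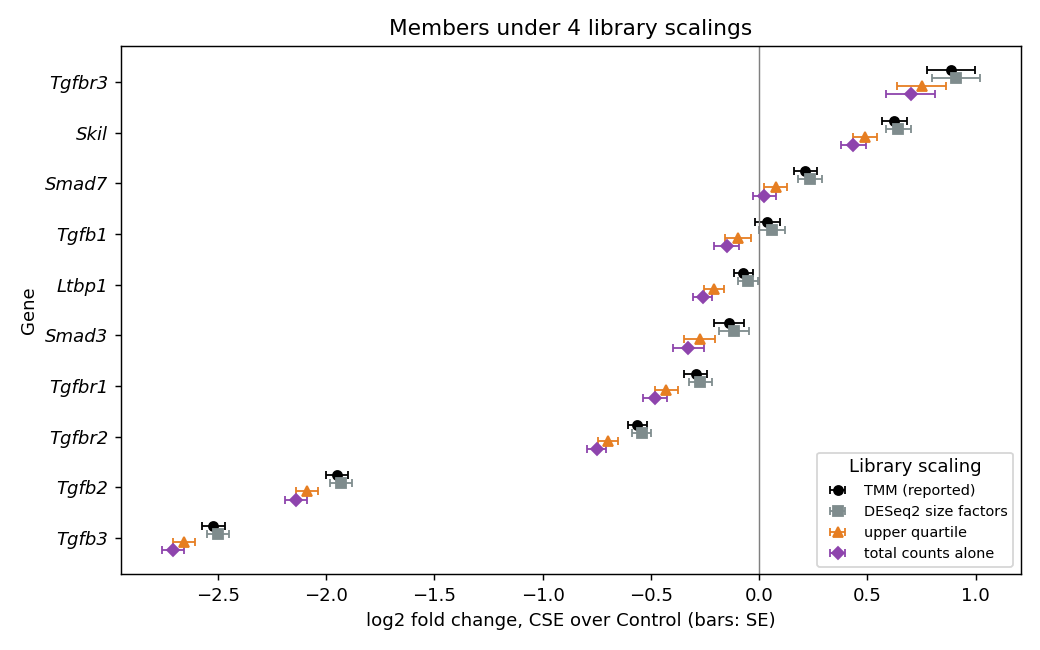
Log2 fold change of CSE over Control (horizontal axis, whiskers are SE) for each member under TMM, DESeq2 size factors, upper-quartile scaling and total counts alone. Tgfb3 and Tgfb2 lie between −2.71 and −1.93 under all of these scalings, whereas Tgfb1 crosses 0 and Smad7 comes close to it.

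Close relatives of 4 members moved unequally to them, which shows best as a ratio within a library. Ski, the paralogue of Skil and likewise a SMAD corepressor, averaged 97.9 ± 6.53 CPM with CSE and 154 ± 3.65 CPM in Control (SD, n = 3 each), a log2 fold change of −0.65 ± 0.05 (adjusted p = 6.7e-09 in edgeR). The log2 ratio of Skil to Ski reads was 1.53, 1.81 and 1.90 with CSE, against 0.58, 0.47 and 0.34 in Control, 1.28 higher with CSE in the means. Smad6, the inhibitory SMAD that acts mainly on BMP receptors, averaged 19.8 ± 1.49 CPM with CSE and 57.8 ± 4.35 CPM in Control (SD, n = 3 each), a log2 fold change of −1.55 ± 0.08 (adjusted p = 5.2e-12 in edgeR). The log2 ratio of Smad7 to Smad6 reads was 2.34, 2.30 and 2.24 with CSE, against 0.62, 0.42 and 0.55 in Control, 1.76 higher with CSE and the largest difference of the 6 log2 ratios.

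Smad2, the other SMAD that the type I receptor activates, rose by 0.33 ± 0.05 (adjusted p = 2.8e-05 in edgeR), so that the log2 ratio of Smad3 to Smad2 reads was −1.24 ± 0.04 with CSE and −0.78 ± 0.09 in Control (SD, n = 3 each). Ltbp3, another latent TGF-beta binding protein gene, rose by 0.32 ± 0.05 (adjusted p = 1.6e-05 in edgeR), and the log2 ratio of Ltbp1 to Ltbp3 was 1.13 ± 0.06 with CSE and 1.52 ± 0.07 in Control. In none of these 4 ratios did the groups overlap. Each had an exact permutation p = 0.1, the floor of the design, and 0.113 adjusted over the 9 ratios.

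**Figure D4:**
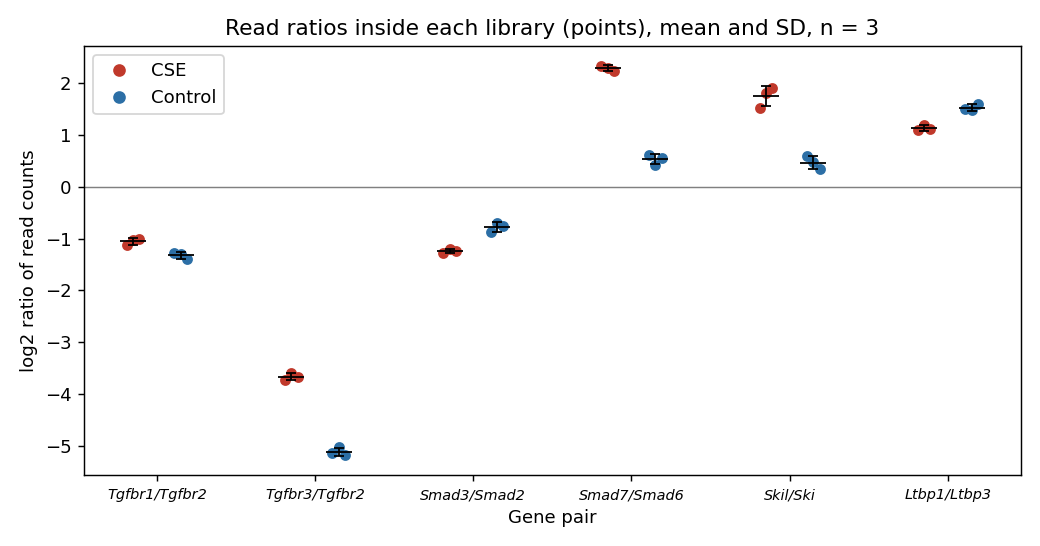
Log2 ratio of read counts (vertical axis) of 6 gene pairs in each library, CSE (red, left of each pair) and Control (blue, right), with the mean and SD (n = 3). The groups are apart for every pair, most widely for Smad7 to Smad6, at 2.29 with CSE and 0.53 in Control.

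The other genes of the pathway, listed by role, changed in both directions. Of 115 listed genes 107 were tested, 37 rose and 50 fell, while 20 missed the threshold, with a median log2 fold change of −0.08 (−0.02 over all tested genes). The share that passed was 81.3%, beside 73.9% of all tested genes. The counts of every list below stand beside 36.3% of all tested genes higher and 37.5% lower, and no list was tested as a set. With total counts alone 27 rose and 61 fell, beside 3749 higher and 6319 lower of all 13390 tested genes. With upper-quartile scaling 4045 of all tested genes were higher and 5990 lower.

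Among 22 tested genes that hold or free the latent ligand, 5 rose, 11 fell and 6 missed the threshold (median −0.16). Over all tested genes 36.3% passed as higher and 37.5% as lower (median −0.02). Thbs1, which encodes thrombospondin, an activator of latent TGF-beta, fell most, to 1253 ± 23.3 CPM with CSE against 13082 ± 345 CPM in Control (−3.38 ± 0.04, adjusted p = 1.3e-19 in edgeR). Itgb8, the beta subunit of an integrin that releases active ligand, averaged 0.616 ± 0.287 CPM with CSE and 4.23 ± 0.315 CPM in Control (−2.74 ± 0.28, adjusted p = 1.2e-07 in edgeR). Emilin1, whose product binds the ligand precursor and limits its processing, fell by 1.84 ± 0.06, and the membrane protease gene Mmp14 by 0.90 ± 0.04. Ltbp4, a binding protein for latent TGF-beta1, rose by 0.55 ± 0.14 (adjusted p = 0.0021 in edgeR). With total counts alone the list held 2 higher and 17 lower, beside 3749 higher and 6319 lower of all 13390 tested genes.

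Among the other receptors and coreceptors, 5 of 9 tested rose and 3 fell, while 1 missed the threshold (median 0.18, with 3 higher and 3 lower under both upper-quartile scaling and total counts alone). Vasn, which encodes vasorin, a protein that binds TGF-beta and limits signalling, rose to 260.6 ± 15.2 CPM with CSE against 104 ± 5.24 CPM in Control (1.33 ± 0.06, adjusted p = 6.4e-13 in edgeR). The activin type II receptor gene Acvr2a (1.08 ± 0.08) and the receptor-associated protein gene Tgfbrap1 (0.82 ± 0.06) rose as well. Acvrl1, the alternative type I receptor ALK1, fell by 0.67 ± 0.06. The coreceptor gene Eng, which encodes endoglin and is a marker of these cells, had 28.2 ± 1.78 CPM with CSE and 27.1 ± 2.23 CPM in Control (SD, n = 3 each), and its log2 fold change of 0.05 ± 0.08 missed the threshold (adjusted p = 0.550 in edgeR). Its sign turned with upper-quartile scaling (−0.08) and with total counts alone (−0.14).

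Of 9 tested activating SMADs and partners, 7 rose and 2 fell (median 0.33, beside −0.02 and 36.3% higher over all tested genes). Under both upper-quartile scaling and total counts alone 5 rose and 2 fell, with medians of 0.19 and 0.14. The medians over all tested genes under these scalings were −0.15 and −0.21. Smad4, the common partner of the activated SMADs, rose by 0.22 ± 0.06 (adjusted p = 0.0035 in edgeR), a call that ended with upper-quartile scaling (0.080, adjusted p = 0.249 in edgeR) and with total counts alone (0.028, adjusted p = 0.685 in edgeR). The nuclear import gene Ipo7 rose by 1.13 ± 0.05, and the coactivator genes Crebbp and Ep300 by 1.11 ± 0.07 and 0.62 ± 0.06. Dab2, an adaptor between receptors and SMADs, fell by 0.77 ± 0.05. Of 19 tested inhibitors and turnover genes 10 rose and 7 fell, while 2 missed the threshold (median 0.26). Rnf111, the ubiquitin ligase Arkadia that removes SMAD7, SKI and SnoN, rose by 1.13 ± 0.06 and the deubiquitinase gene Usp15 by 1.00 ± 0.05. Ldlrad4, whose product limits the access of SMADs to the type I receptor, fell to 15.5 ± 1.87 CPM with CSE against 61.7 ± 2.51 CPM in Control (SD, n = 3 each). For the genes given here without a p, edgeR's adjusted p did not exceed 3.5e-08, that of Ep300.

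Of 10 tested genes of the branch that acts without SMADs, 3 rose and 4 fell, while 3 missed the threshold (median 0.01). The stress-activated kinase gene Mapk14 fell by 1.17 ± 0.06 and Tab2, an adaptor of the kinase TAK1, by 0.56 ± 0.05. The ubiquitin ligase gene Traf6 rose by 1.04 ± 0.10 and the GTPase gene Rhoa by 0.30 ± 0.04 (adjusted p = 3.7e-06 in edgeR, the highest of these 4). In the activin branch, which shares SMAD2 and SMAD3, 5 of 6 tested genes fell and 1 rose (median −1.34). That list pools ligand and inhibitor genes, so its median gives no direction of activin signalling. Its lower genes numbered 4 with the DESeq2 Wald test, and 4 to 5 leaving out 1 library at a time. The shares over all tested genes were 37.5% lower and 36.3% higher. Inhba, the activin A subunit gene, fell to 204.5 ± 22.7 CPM with CSE against 551 ± 27.9 CPM in Control (−1.43 ± 0.07, adjusted p = 2.3e-12 in edgeR). The activin antagonist gene Fst (−2.11 ± 0.09) and the ligand gene Gdf11 (−1.25 ± 0.10) fell too, while Inhbb, the activin B subunit gene, rose by 1.82 ± 0.22 to 5.13 ± 0.472 CPM with CSE against 1.44 ± 0.367 CPM in Control.

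Genes known to respond to TGF-beta were divided. Among 32 tested, 6 rose, 18 fell and 8 missed the threshold (median −0.17). Of all tested genes 73.9% passed, 36.3% as higher and 37.5% as lower (median −0.02), so the share that passed is close to the background. Snai2, a transcription factor gene of the mesenchymal state, fell to 8.07 ± 0.457 CPM with CSE against 90.6 ± 4.55 CPM in Control (−3.49 ± 0.07, adjusted p = 8.7e-17 in edgeR). Ccn2, the connective tissue growth factor gene, which the table names by its older symbol Ctgf, fell to 892 ± 105 CPM with CSE against 5683 ± 76.5 CPM in Control (−2.67 ± 0.07, adjusted p = 5.5e-16 in edgeR). Plaur, the urokinase receptor gene, went the other way and rose by 3.15 ± 0.05 (adjusted p = 6.6e-18 in edgeR). Many of these genes also answer to other signals, and several appear among genes already known to have changed in these libraries, so they are no independent evidence of a direction of TGF-beta signalling.

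**Figure D5:**
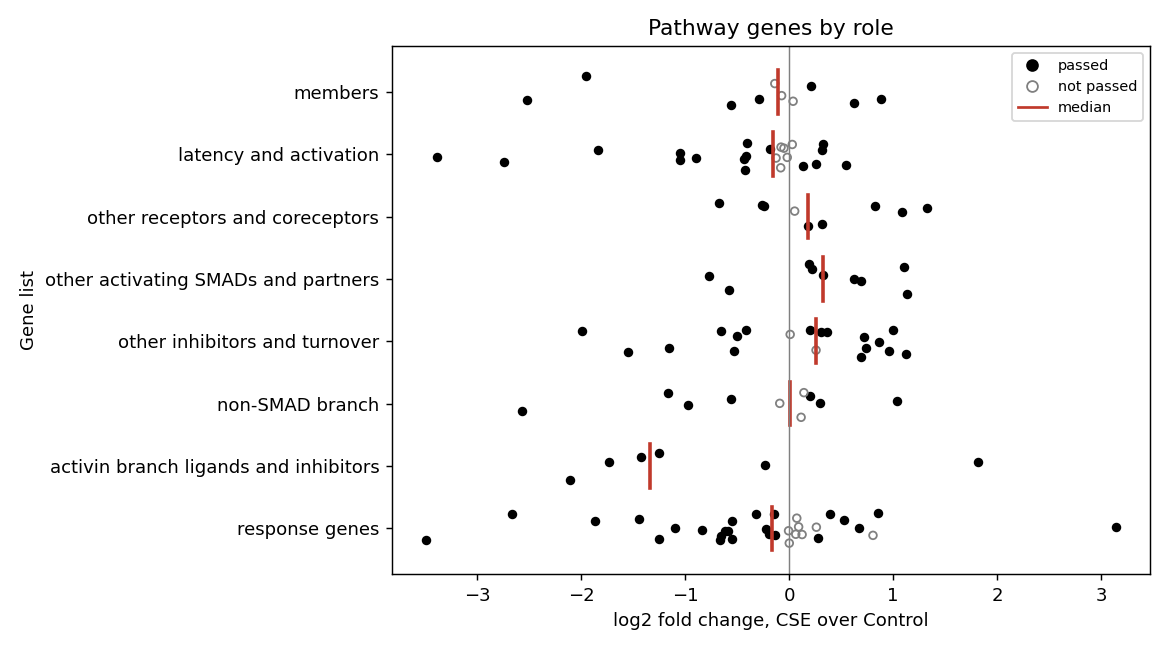
Log2 fold change of CSE over Control (horizontal axis) of each tested gene in the member list and the 7 other pathway lists (rows, vertical scatter within a row is arbitrary); filled points passed edgeR's test, open points did not, and red lines are medians. The activin branch, ligands and inhibitors together, has the lowest median, −1.34, and the activating SMADs and partners the highest, 0.33.

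The genes whose profile lay closest to that of Tgfb3, the member of smallest p among those that fell, were Ccnd1, Phldb2 and Fam64a. Likeness was the Euclidean distance between log2 CPM profiles over the 6 libraries, each centred on its mean, and came to 0.109, 0.124 and 0.130. Ccnd1, the cyclin D1 gene, had a log2 fold change of −2.53 ± 0.05 (adjusted p = 1.1e-16 in edgeR). For Skil, the member of smallest p among those that rose, Dld, Tmtc3 and Rc3h2 were closest, at distances of 0.0653, 0.0670 and 0.0679. Within a distance of 0.5 lay 83 other genes for Tgfb3 and 2387 for Skil. Such profiles, from 2 groups, mostly order genes by the size of their change, and the likeness is a description only.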

How the data were processed

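Total RNA of 6 libraries was sequenced, and the table the authors deposited holds raw read counts per gene symbol in 6 columns, whole numbers with no normalization. Each column name matches 1 sample title. HISAT2 2.0.4 and the genome build Rnor_6.0 are named per the submitters' processing notes, with no role given. The sources used here do not give the counting tool, strand setting or annotation, and without a strand setting a gene's reads cannot be separated from those of a gene on the other strand. In the RefSeq table of GRCr8, a different build used only for names, Tgfb2 overlaps a snoRNA, and Tgfbr3 and Ltbp1 overlap lncRNAs.

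Genes were filtered with filterByExpr and fitted on the whole table with TMM scaling and edgeR 4.0.16 (R 4.3.3), quasi-likelihood F test, 2-sided, Benjamini-Hochberg adjustment over 13390 genes, threshold 0.05. SE is the size of the log2 fold change divided by the square root of F. Normalized CPM is given as mean ± SD. Within-library ratios of counts were compared by exact permutation. DESeq2 1.42.0, limma-voom (limma 3.58.1), other scalings, no filter, a replicate block and leaving out each library were alternatives. The chi-square per degree of freedom between libraries was 3.24 to 5.74 within groups and 180 to 217 across groups, so none agreed within sampling noise. Fits were tested on simulated counts in which few genes changed, in balanced directions. Such a test cannot check the scaling where most genes passed, as they did here.

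The members, lists and tests were chosen with earlier results of these data known. Named were all members, up to 4 genes per other list by smallest adjusted p among those that passed with a mean of 1 CPM or more, and Smad2, Smad4, Smad6, Ski, Eng, Ltbp3 and Ltbp4. Of the listed pathway genes, Ipo8 was not matched. A planned comparison of ligand protein sequences was not made. A gene that this rule names is not reported here.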

Additional observations from a re-analysis of the deposited data

How the results depend on the processing

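The calls of Tgfb2, Tgfb3, Tgfbr1, Tgfbr2, Tgfbr3 and Skil held under all 13 alternatives. With upper-quartile scaling Tgfb1 was at −0.10, Smad3 at −0.275, Smad7 at 0.076, Ltbp1 at −0.21 and Eng at −0.084, and with total counts alone at −0.15, −0.33, 0.024, −0.26 and −0.14. The median of all genes moved down with both scalings (by −0.14 and −0.19). Total counts alone gave 7 members lower, with 2 higher and 17 lower latency genes. Over all 13390 tested genes that scaling gave 3749 higher and 6319 lower. Receptor genes called higher numbered 3 with total counts alone and 3 with upper-quartile scaling. Smad4 lost its call under both scalings (0.028 and 0.080). Leaving out 1 library at a time, Tgfb1 ranged from −0.028 to 0.072, Smad3 from −0.19 to −0.084, and the receptor genes called higher from 3 (without CSE replicate 3) to 5. On the given strand only, 0 member promoters held the antioxidant response core. The aryl hydrocarbon receptor core was then in 4 of them (18.2% of all promoters) and the SP1 box in 4 (21.9%). Deviations from the group mean correlated at 0.02, −0.03 and 0.00 between same-numbered libraries of the 2 groups. Differently numbered libraries gave −0.08 to 0.09. With so few libraries this cannot decide whether the numbers pair them. A replicate block gave 9756 calls over all genes against 9894 and changed no call of a member. Tgfbr3, with 114 to 262 reads per library, had the widest SE of the members.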
